A study of Mus musculus with 435 samples.

Results

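The pentraxin and serum amyloid genes described here are Apcs, Crp, Saa2 and Saa4, followed in mouse liver across 2 strains, 2 diets and 11 weeks. They were taken as every probe that carries 1 of these symbols in the probe-to-gene table of the array. Each gene had 1 probe, so the set holds 4 probes and 4 of the 13409 genes that the table names. Liver RNA labelled with Cy5 was hybridised to spotted 2-colour arrays against a Cy3-labelled pool of 10 C57 tissues, 26% of it liver. The labels place 218 arrays of A/J mice and 217 of C57 mice, fed high-fat or low-fat, in 44 groups of 8 to 10 arrays at week 0, week 1 and weeks 3 to 11. They give no age, sex or diet composition, and no substrain of C57. They also do not say which arrays come from separate mice, so a p-value measures only the spread between arrays or weeks, which may be partly technical. The pool is shared by all groups and comes from C57, 1 of the 2 strains compared. Values are log2 ratios of liver over the pool, set so that the median probe of each array is 0. Such a ratio places a gene against its own level in the pool and does not rank genes by abundance. The deposited files hold no signal intensities, so how bright the spots were, and what that meant for precision, is not known. The errors given for differences over the weeks rest on the spread of weekly group means.

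The pentraxins encoded by Apcs and Crp are ring-shaped plasma proteins that hepatocytes secrete and that bind bacterial surfaces, chromatin and damaged cells. Apcs encodes serum amyloid P component, a constituent of all amyloid deposits and the main acute phase pentraxin of the mouse. Crp encodes C-reactive protein, the strongest marker of inflammation in humans but a weakly responding gene in mice. Serum amyloid A proteins travel on high-density lipoprotein. Saa2 is one of the forms that the liver induces steeply under interleukin-6, interleukin-1 and TNF, whereas Saa4 is the constitutive form. Saa1 is the near-identical neighbour of Saa2.

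The sequences just upstream of the 4 genes show which inflammation-linked letters lie near their starts. The 250 bases before each RefSeq gene start in GRCm38.p6 are chr1:172895055-172895304 (minus strand) for Apcs, chr1:172697806-172698055 (plus strand) for Crp, chr7:46751583-46751832 (plus strand) for Saa2 and chr7:46732604-46732853 (minus strand) for Saa4. They are printed because Apcs carried the strain difference, Crp and Saa4 varied together, and Saa2 held the single highest array. Capitals mark matches, on either strand, to a STAT motif (TTCNNNGAA), a C/EBP motif (TTNNGNAA), the letters of a TATA box (TATAAA) or an NF-kB motif of 10 letters.
Apcs: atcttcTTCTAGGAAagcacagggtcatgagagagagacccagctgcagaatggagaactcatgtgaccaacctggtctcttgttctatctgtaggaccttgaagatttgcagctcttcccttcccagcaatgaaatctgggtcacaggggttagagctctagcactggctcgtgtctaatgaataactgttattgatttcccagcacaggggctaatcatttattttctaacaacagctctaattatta
Crp: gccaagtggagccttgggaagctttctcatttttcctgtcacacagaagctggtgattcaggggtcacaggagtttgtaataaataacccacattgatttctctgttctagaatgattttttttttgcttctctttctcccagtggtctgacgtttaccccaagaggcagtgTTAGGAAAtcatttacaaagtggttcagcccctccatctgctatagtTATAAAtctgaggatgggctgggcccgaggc
Saa2: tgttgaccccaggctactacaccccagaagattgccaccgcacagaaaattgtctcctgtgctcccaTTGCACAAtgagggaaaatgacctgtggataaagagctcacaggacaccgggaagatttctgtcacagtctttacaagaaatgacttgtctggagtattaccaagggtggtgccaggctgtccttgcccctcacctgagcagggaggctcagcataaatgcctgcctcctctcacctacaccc
Saa4: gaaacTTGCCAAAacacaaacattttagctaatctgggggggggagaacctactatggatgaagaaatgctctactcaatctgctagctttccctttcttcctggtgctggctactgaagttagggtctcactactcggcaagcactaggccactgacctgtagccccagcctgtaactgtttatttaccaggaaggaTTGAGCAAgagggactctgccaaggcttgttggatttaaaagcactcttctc
Counted back from the start, the match in Apcs is the STAT motif at -244, a motif that 7.02% of 32851 windows of this length hold. Crp holds a C/EBP match at -78 and a TATA match at -31. Saa2 has 1 C/EBP match at -183, and Saa4 has 2, at -245 and -52. The C/EBP letters are common, being found in 36.8% of the windows, and the TATA letters in 12.4%. No match to this form of the NF-kB motif lies in any of the 4 windows. Only 1.41% of all windows hold one, so its absence does not set the 4 genes apart. Matches of letters are descriptions and not binding sites. For Saa1 the window in the RefSeq table lies mostly inside the annotated bounds of the gene, not just before them as for Apcs, Crp, Saa2 and Saa4. That window and the one of Saa2 share 238 of 249 aligned bases (95.6%). The probe table holds no Saa1 probe, and the probes' own sequences were not used here, so the Saa2 value may hold RNA of both genes.

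Several arrays stood apart and bear on what was compared. Of the 40 arrays of week 8, 28 correlated with the median array at only 0.0461 to 0.0924, and week 8 was left out. Another 4 arrays correlated below 0.15, 1 of A/J high-fat mice at week 5, 1 of A/J low-fat mice at week 10 and 2 of C57 low-fat mice at week 6. They were left out of the fits, as were the second copies of 2 pairs of identical columns. That left 350 arrays in 36 groups over 9 weeks. Arrays held between 194 and 14920 measured probes (median 10767), and at week 0 the median was 5007. Of the 350 arrays, Apcs was measured on 303, Crp on 330, Saa2 on 344 and Saa4 on 338. All 4 probes passed the filter on measured arrays that 7643 probes passed. Of the fixed hepatocyte markers, 5 of 5 tested lay above 0, with a median log2 ratio of 1.21, as the liver label implies. The tested markers of macrophages lay below 0 (2 of 2, median -0.56), and the skeletal muscle marker Acta1 lay at -2.75. The tested lymphocyte markers lay above 0 (3 of 3, median 0.34), as did the adipocyte marker Retn (0.12), so not every marker of another cell type was below the median probe. The strain and diet means of the 4 genes of interest, from -0.72 to 0.28, all lay below that hepatocyte median.

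Apcs was the member with the clearest group structure, and it was lower in C57 than in A/J. Averaged over 9 weeks its log2 ratio was 0.08 ± 0.46 (SD of 9 weekly means) in A/J on the high-fat diet and 0.01 ± 0.56 in A/J on the low-fat diet. In C57 it was -0.50 ± 0.34 on the low-fat diet and -0.72 ± 0.31 on the high-fat diet. Weekly C57 means lay below 0 in 9 of 9 weeks on both diets. Single arrays spread widely. The 78 A/J high-fat arrays ran from -2.30 to 2.13 with a median of 0.00025, and 39 of them were above 0. The 72 C57 high-fat arrays ran from -3.20 to 0.84 with a median of -0.66, and 9 were above 0. On the low-fat diet 43 of 78 A/J arrays and 14 of 75 C57 arrays were above 0. The strains therefore overlapped on both diets, and fewer C57 than A/J arrays lay above 0. In the order of the 4 levels, neither the 2 A/J groups nor the 2 C57 groups differed past the threshold by diet (0.08 ± 0.15 in A/J and -0.22 ± 0.15 in C57, limma adjusted p of 0.997 and 0.902).

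On the high-fat diet Apcs was 1.75-fold lower in C57 than in A/J, a log2 difference of -0.80 ± 0.15 (SE, 9 weeks, 95% interval -1.11 to -0.49). The limma test over all 7643 probes gave an adjusted p of 0.00103. It was the only one of the 4 genes called in this comparison, in which 3.94% of all probes were called and 1.19% were called lower in C57; 15.2% had an unadjusted p under 0.05. The weekly difference was negative in 9 of 9 weeks, from -2.02 at week 10 to -0.28 at week 6. Week 10 was the only week in which the arrays of the 2 strains did not overlap. There the 8 A/J arrays lay between 0.33 and 2.13 and the 7 C57 arrays between -2.33 and 0.04. How often other probes separate the strains in a week is not given here, so this separation is a description only. Without week 10 the difference was -0.65 and was still called (adjusted p of 0.00036).

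On the low-fat diet the same difference was -0.51 ± 0.15 (95% interval -0.82 to -0.20), a 1.42-fold lower level in C57 that missed the threshold (limma adjusted p of 0.0783). None of the 4 genes was called there, against 2.39% of all probes, while Apcs and Crp had unadjusted p-values under 0.05, as did 11.7% of all probes. The difference was negative in 8 of 9 weeks and reached -1.78 at week 10. Week 3 went the other way (0.65). In that week 3 of the 9 A/J low-fat arrays gave Apcs values of -2.94, -2.52 and -1.76, while the other 6 lay between -0.87 and 0.34. Without week 3 the difference was -0.65 and passed the threshold (limma adjusted p of 0.00922). Without week 10 it was -0.35 and was not called (adjusted p of 0.112). Of 12 other settings 5 gave a call and 7 did not, among them the fit without centring (-0.45, adjusted p of 0.148). The size of the strain difference on the 2 diets was not shown to differ: the diet difference of C57 minus that of A/J was -0.30 ± 0.21, with a 95% interval of -0.74 to 0.14 and an adjusted p of 1.00. No probe at all was called for that contrast by limma (0%), 204 of 7643 (2.67%) having an unadjusted p under 0.05.

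At week 0 Apcs was measured on few arrays. The 8 C57 arrays averaged -0.37 ± 0.43 (SD) and ran from -1.22 to 0.21 with a median of -0.32. The 11 A/J arrays averaged -0.17 ± 0.67 and ran from -1.28 to 1.23 with a median of -0.20. The strains overlapped, and the difference of -0.20 was within the spread of arrays (two-sided exact permutation test, p = 0.478, n = 8 and 11).

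**Figure D1:**
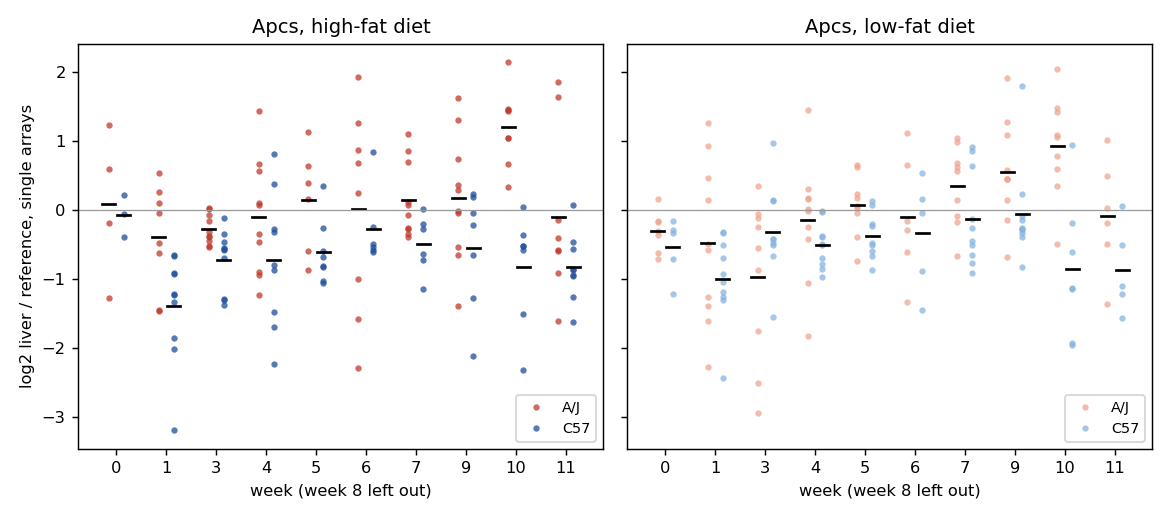
Apcs log2 ratio of liver over the pooled reference on single arrays (points) by week, for A/J and C57, with the group mean as a black bar; the high-fat diet is on the left and the low-fat diet on the right. The C57 mean lies below the A/J mean in all 9 weeks after week 0 on the high-fat diet and in 8 of 9 on the low-fat diet, with week 10 the widest apart.

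Hepatocyte and acute phase genes were read beside Apcs in the same strain comparison. On the high-fat diet the albumin gene Alb was -0.39 ± 0.10 (limma adjusted p of 0.0275) and the transferrin gene Trf -0.41 ± 0.09 (adjusted p of 0.00313) in C57 against A/J. Fetuin-A, Ahsg, rose by 0.54 ± 0.13 (adjusted p of 0.00839), and the fibrinogen chain gene Fgb by 0.38 ± 0.10 (adjusted p of 0.0192). Of the 5 tested hepatocyte markers, which include Alb, Trf and Fgb, 1 was called higher and 2 lower, and the median difference was -0.09. On the low-fat diet, where Apcs was at -0.51, 4 of the 5 were lower in C57 and their median was -0.28: Trf fell as given below, and Alb (-0.34), Apoa1 (-0.28) and Ttr (-0.23) missed the threshold (adjusted p of 0.0922, 0.382 and 0.313). The part of these markers in the Apcs difference on either diet was not tested. No tested marker of macrophages (2 of 11 tested), neutrophils (1 of 9), lymphocytes (3 of 9), adipocytes (1 of 7), kidney (2 of 4) or muscle (3 of 5) was called between the strains on the high-fat diet. With so few tested, and 3.94% of all probes called, this does not show equal cell content. In a whole piece of liver, fewer hepatocytes and less RNA per hepatocyte cannot be told apart.

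None of the 4 genes passed the threshold between the diets. In C57 0.196% of all probes were called between the diets and in A/J 0.0262%, so few probes of any kind were. Crp had the higher means under high-fat feeding in A/J and in C57, without a call. In A/J its log2 ratio averaged 0.13 ± 0.22 (SD of 9 weekly means) with high-fat and -0.15 ± 0.30 with low-fat feeding, a difference of 0.28 ± 0.08 (SE) that was positive in 9 of 9 weeks. In C57 it averaged 0.28 ± 0.22 and 0.05 ± 0.18, a difference of 0.24 ± 0.08, positive in 7 of 9 weeks. The unadjusted limma p-values were 0.0023 and 0.00787, but over all probes the adjusted values were 0.676 and 0.484. The 95% intervals of the Crp difference ran from 0.11 to 0.45 in A/J and from 0.07 to 0.41 in C57. In A/J the largest weekly difference, 0.91, came from week 6, when the low-fat group included arrays at -3.02 and -1.49. Without week 6 the A/J difference of Crp was 0.19. Arrays of the diets overlapped in every week for all 4 genes. The share of all probes that overlap in this way is not given here.

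Crp differed little between the strains. C57 exceeded A/J by 0.16 ± 0.08 under high-fat feeding and by 0.20 ± 0.08 under low-fat feeding (limma adjusted p of 0.373 and 0.314). Its level ran over the groups from A/J low-fat at the bottom to C57 high-fat at the top, with C57 low-fat and A/J high-fat groups between them. The 2 strain comparisons of neighbours in that order missed the threshold, and the middle pair was not tested.

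Saa2, the inducible form, stayed close to the median probe in every group. Its mean over 9 weeks was 0.19 ± 0.12 in A/J high-fat, 0.10 ± 0.21 in A/J low-fat, 0.26 ± 0.20 in C57 high-fat and 0.08 ± 0.22 in C57 low-fat mice (SD of 9 weekly means). The diet difference was 0.18 ± 0.07 in C57 (SE, limma unadjusted p of 0.0249, adjusted p of 0.691; 0.11 without week 11) and 0.09 ± 0.07 in A/J (adjusted p of 0.995). With Crp, it made 2 of the 4 genes under an unadjusted p of 0.05 in C57, against 6.32% of all probes; in A/J Crp alone did, against 5.42%. The widest weekly gap was at week 11 in C57, 0.73. There the 10 high-fat arrays of Saa2 ran from 0.08 to 1.04 with a median of 0.54, and the 9 low-fat arrays from -0.66 to 0.28 with a median of -0.28. The upper 8 high-fat arrays exceeded every low-fat one, but the week-level test on single arrays did not pass over all probes (limma adjusted p of 0.68).

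Saa4, the constitutive form, had strain and diet means that lay close together, with weekly means spread around them. Its mean over weeks was 0.20 ± 0.49 in A/J high-fat, 0.13 ± 0.34 in A/J low-fat, 0.15 ± 0.39 in C57 high-fat and 0.10 ± 0.29 in C57 low-fat mice. Diet differences were 0.07 ± 0.12 in A/J and 0.04 ± 0.12 in C57, with 95% intervals of -0.18 to 0.31 and -0.20 to 0.28. Strain differences were -0.05 ± 0.12 under high-fat and -0.03 ± 0.12 under low-fat feeding. Weekly diet differences in A/J ran from -0.75 at week 5 to 0.72 at week 6, so single weeks pointed in opposite directions. Saa4 was above 0 in all 4 strain and diet groups at weeks 6, 7 and 9, when the group means ran from 0.11 to 0.83, and below 0 in all 4 at week 0, from -0.50 to -0.23.

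**Figure D2:**
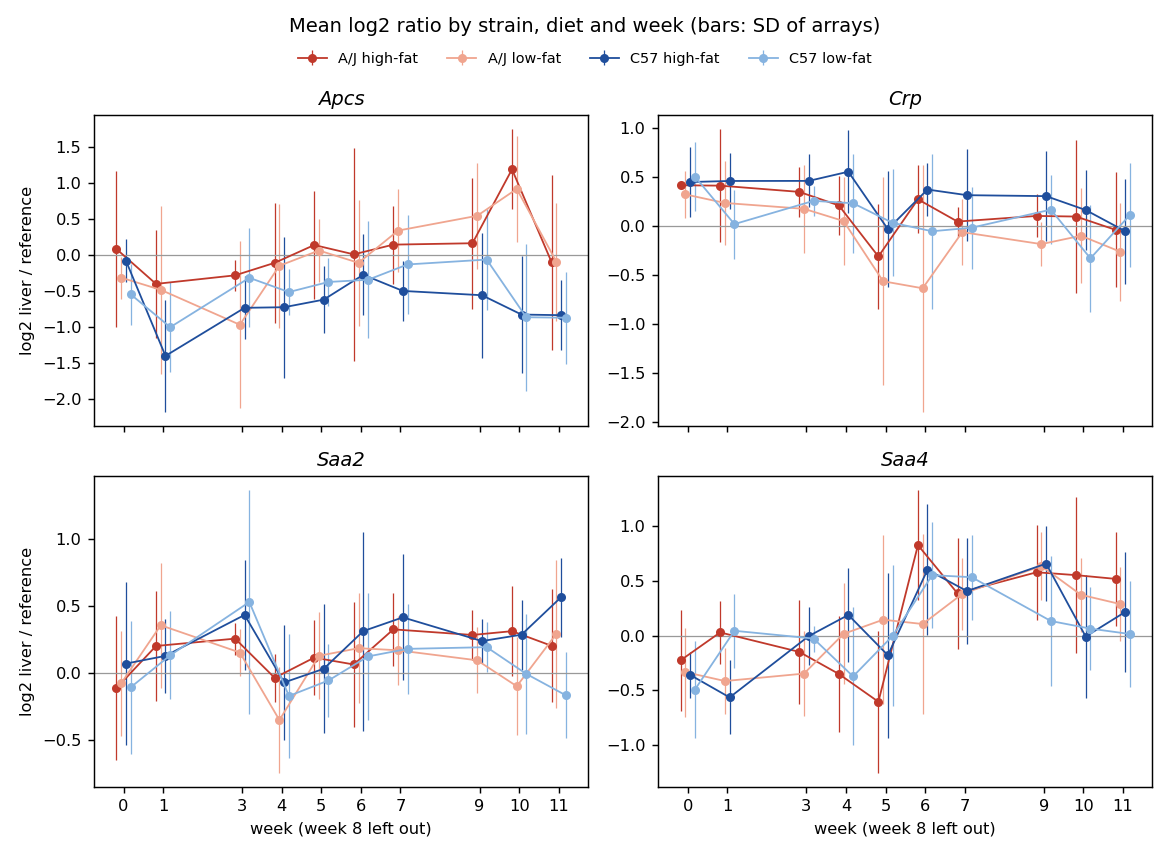
Mean log2 ratio of liver over the reference (vertical axis, own scale per panel) against week for Apcs, Crp, Saa2 and Saa4, with bars for the SD of the measured arrays in each of the 4 strain and diet groups. For Apcs the C57 means lie below the A/J means of the same diet in most weeks, with week 3 on the low-fat diet the exception among the 9 fitted weeks; the lines of Saa2 and Saa4 cross from week to week.

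A straight line in week was fitted to each group. None of the 4 genes was called, while 5.91% of all probes were called in A/J high-fat, 1.41% in A/J low-fat, 2.85% in C57 high-fat and 0.209% in C57 low-fat groups. The steepest lines belonged to Apcs in A/J low-fat mice, 0.12 ± 0.04 per week (limma adjusted p of 0.0796), and Saa4 in A/J high-fat mice, 0.09 ± 0.03 per week (adjusted p of 0.0924). Saa4 in A/J low-fat mice followed with 0.09 ± 0.03 per week (adjusted p of 0.146) and then Apcs in A/J high-fat mice with 0.09 ± 0.04 (adjusted p of 0.169). Week and hybridisation batch cannot be told apart, since the labels give no batch. Within single weeks the diets were compared on single arrays. None of 79 comparisons of the 4 genes was called by limma; 11 of them (13.9%) had an unadjusted p under 0.05, and the lowest adjusted p was 0.315. Of all probes in the same fits 7.23% had an unadjusted p under 0.05, from 3.78% to 19.1% in the single comparisons. Of all probes, 0.853% (week 4), 0.00684% (week 9) and 0.00759% (week 11) were called in A/J, and 0.0104% (week 6), 0.00712% (week 9) and 0.00802% (week 10) in C57, with 0% in the remaining weeks.

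**Figure D3:**
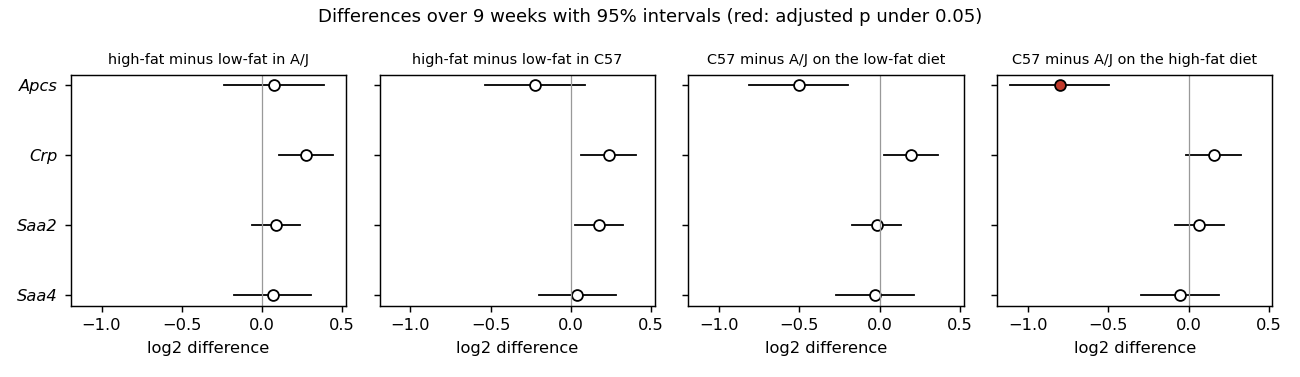
Differences in log2 ratio over 9 weeks (horizontal axis) with 95% intervals for each gene in 4 comparisons; a red point has an adjusted p under 0.05. Only the Apcs difference between C57 and A/J on the high-fat diet is red, while the Crp diet intervals in both strains, among others, exclude 0 without a call.

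The rest of the acute phase and signalling genes gave the setting for these values. Of 38 other genes that rise in the acute phase, 27 were on the array and 12 were tested; 0 were called for diet in either strain, and their median diet difference was -0.02 in C57 and 0.04 in A/J, beside 0.00 and -0.01 over all probes. Between the strains on the high-fat diet 1 of the 12, Fgb, was called, with a median of 0.02. The haemopexin gene Hpx had the largest diet difference of this list in C57, 0.25 ± 0.10 (adjusted p of 0.582). Genes that fall in the acute phase were tested for 11 of 14, with 0 called for diet; between the strains on the low-fat diet Trf fell by 0.52 ± 0.09 (limma adjusted p of 0.000353) and the cytochrome gene Cyp2c29 rose by 0.38 ± 0.10 (adjusted p of 0.0402) in C57. Of the genes of interleukin-6, interleukin-1 and TNF signalling, which drive the acute phase, 10 of 28 were tested and 0 were called in any diet or strain comparison. The genes of the cytokines themselves were not among the 10 tested. The shared receptor chain gene of the interleukin-6 family, Il6st, came nearest on the high-fat diet, at 0.26 ± 0.08 higher in C57 (adjusted p of 0.0786). The kinase gene Jak2 was 0.27 ± 0.14 higher in the same comparison (adjusted p of 0.362). Of the other pentraxins, the neuronal pentraxin gene Nptx2 was 0.38 ± 0.10 higher in C57 than in A/J on the low-fat diet (limma adjusted p of 0.044). In the same strain comparison Ptx4 was 0.10 ± 0.07 higher in C57 (adjusted p of 0.618). Of the HDL genes, whose particles carry the serum amyloid A proteins, 8 of 8 tested lay above 0 with a median of 1.11, and 0 were called in any diet or strain comparison. The apolipoprotein gene Apoc3 had the nearest miss in C57, 0.33 ± 0.08 higher on the high-fat diet (adjusted p of 0.0924). Of the complement and receptor genes that pentraxins engage, 3 of 15 were tested and 0 were called.

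Single arrays with high values were sought as arrays at least 2 above the median of their group on the log2 scale. Saa2 had 1 such array among 383, Apcs had 4 among 321, and Crp (348 arrays) and Saa4 (365 arrays) had none. The same count over all probes is not given here, so these counts are not shown to be particular to the 4 genes. Without centring of the arrays the count for Apcs was 1 and that for Saa2 was 1. The Saa2 array is sample 30 of the C57 low-fat group at week 3. Its Saa2 log2 ratio was 2.80, while the other 9 arrays of the group lay between -0.07 and 0.75 and the group median was 0.26. That is an excess of 2.54, or 5.8-fold over the group median. On the same array Apcs was 1.40 above its group median, Crp 0.24 below it (-0.24) and Saa4 0.09 above it.

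Other genes of the acute phase were also high on that array. Of 17 measured there, 15 were above their group median, and the median excess was 0.67. By that median it ranked 3 of the 362 arrays with at least 10 of these genes measured, for which the 5th and 95th percentiles were -0.31 and 0.35. The complement gene C4b was 1.86 above its group median. The haemoglobin-binding haptoglobin gene Hp was 1.20 above and the haem-binding Hpx 1.10 above. The prothrombin gene F2 exceeded its median by 1.14 and the inhibitor gene Serpina3n by 0.68. The iron hormone gene Hamp, at -0.70, lay below. Leaving out this array moved the Saa2 diet difference in C57 from 0.18 to 0.20 and changed no call of the 4 genes.

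**Figure D4:**
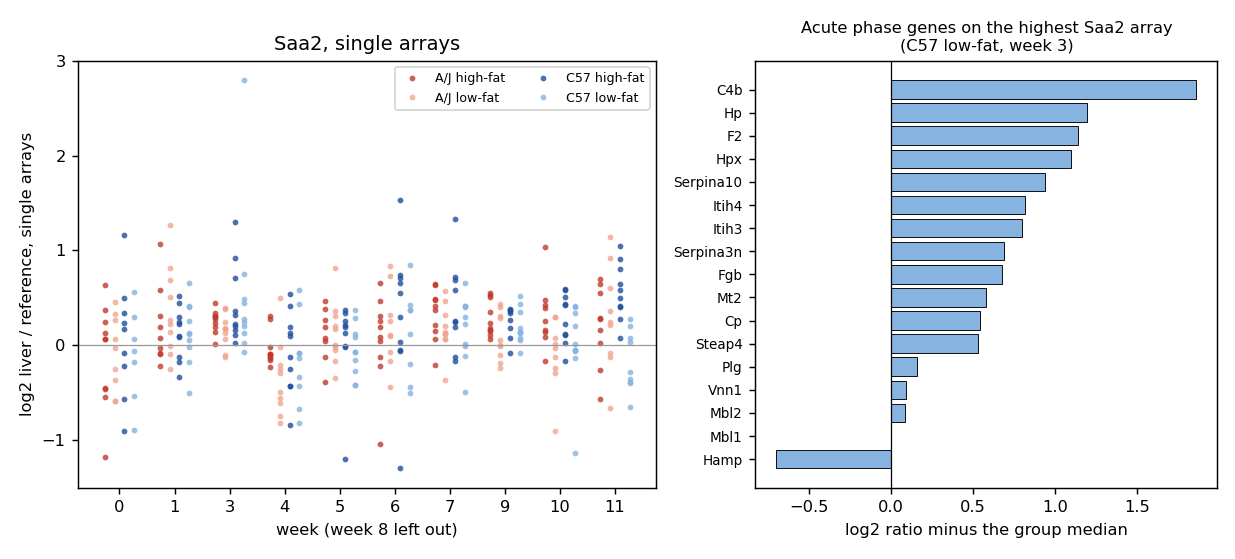
Left, Saa2 log2 ratio on single arrays by week for the 4 strain and diet groups; right, log2 excess over the group median of 17 acute phase genes on the array with the highest Saa2. One C57 low-fat array at week 3 stands at 2.80, and 15 of the 17 bars on the right point upward.

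The 4 high Apcs arrays did not share that pattern as a set. They are 2 from A/J high-fat mice at week 11, with log2 ratios of 1.85 and 1.64, 1 from C57 low-fat mice at week 9 with 1.79, and 1 from C57 low-fat mice at week 10 with 0.93. Saa2 on these arrays lay below its group median in 4 of 4, with excesses from -1.12 to -0.0015. The median excess of the acute phase genes was -0.22, 0.58, 0.03 and -0.11 in that order, which are ranks 325, 5, 136 and 287 of 362. The second A/J array was thus the only one of the 4 near the top. Apcs was at least 2 below the group median on 3 arrays, Crp on 2 and Saa4 on 2, and Saa2 on none. The lowest Crp values were -3.39 and -3.02, both from A/J low-fat mice, at week 5 and at week 6. One of the low Saa4 arrays, at A/J high-fat week 5, is among the 4 that correlate below 0.15 with the median array.

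Across arrays 1 of the 6 pairs of genes varied together. For Crp and Saa4, deviations from the group mean correlated at r = 0.41 (Spearman rho = 0.34, n = 325 arrays). The permutation p within groups was 1e-05, the smallest that 100000 resamples can give, and 6e-05 after Benjamini-Hochberg adjustment over the 6 pairs. Leaving out the 2 arrays farthest from the median in Crp gave r = 0.40, while arrays far out in Saa4 alone stayed in. Within the 4 strain and diet groups r was 0.30 in A/J high-fat, 0.31 in A/J low-fat, 0.51 in C57 high-fat and 0.58 in C57 low-fat mice, and the adjusted permutation p passed 0.05 in both C57 groups but not in A/J (0.0797 and 0.0575). Some arrays were low in both genes. Crp was at least 1 below its group median on 15 arrays and Saa4 on 13, and both were on 6, 3 of A/J and 3 of C57 mice; no array was at least 1 above in both. Without these 6 arrays, whose choice lowers r by construction, r was 0.30, and without week 5 it was 0.33. Arrays with consecutive sample numbers, averaged in pairs, gave 0.37, but 0.23 without the 2 pairs farthest out in Crp. The correlation with the number of measured probes per array was -0.04 for Crp and -0.17 for Saa4. With the array's likeness to the median array it was 0.14 for Crp and 0.08 for Saa4. The part of these array measures in the correlation of Crp with Saa4 was not tested.

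The other 5 pairs were weak. Apcs correlated with Crp at r = 0.01 (rho = -0.04, n = 294, permutation p = 0.799), with Saa2 at -0.10 (rho = -0.13, n = 301, permutation p = 0.123) and with Saa4 at 0.10 (rho = 0.09, n = 300, permutation p = 0.0644). Saa2 correlated with Crp at -0.10 (rho = -0.13, n = 327, permutation p = 0.0642) and with Saa4 at -0.12 (rho = -0.10, n = 334, permutation p = 0.028). After adjustment the r values of these 5 pairs had p from 0.084 to 0.799. Without the 2 arrays farthest out in 1 gene of the pair, the r values were -0.01, -0.08, 0.10, -0.15 and -0.14 in the same order. That gene was Apcs for its own pairs, Crp for Saa2 with Crp, and Saa2 for Saa2 with Saa4. The 2 pentraxins, which are neighbours on chromosome 1, and the 2 serum amyloid A genes on chromosome 7 thus showed no positive correlation that passed the threshold.

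**Figure D5:**
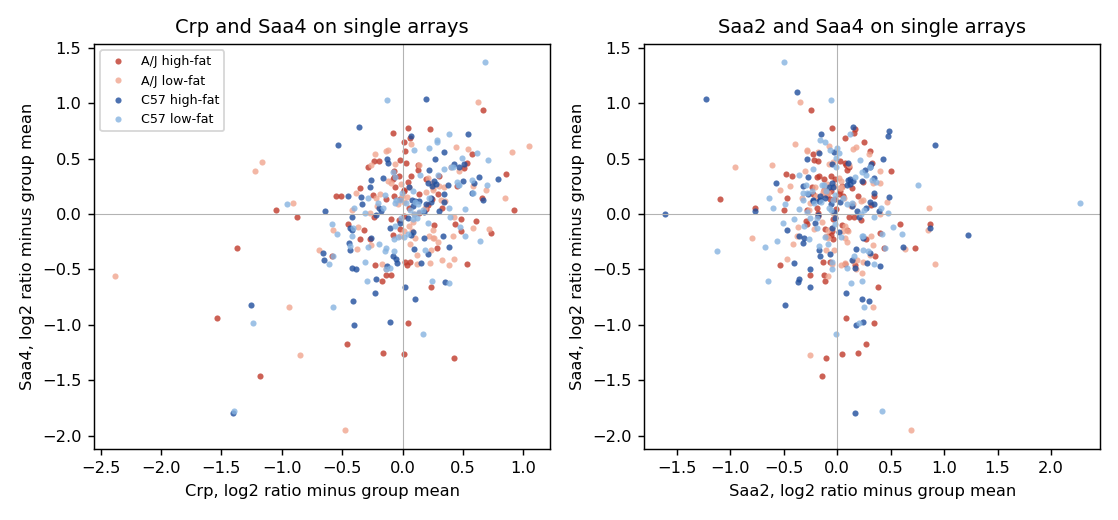
Deviation of the log2 ratio from the group mean on single arrays for Crp against Saa4 (left) and Saa2 against Saa4 (right), coloured by strain and diet. The left cloud tilts upward (r = 0.41, n = 325) with 6 arrays low in both genes, and the right one does not (r = -0.12, n = 334).

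Each gene was also set against the 10987 to 11211 probes with 1 symbol that were measured together with it on at least 150 arrays. The 5 most alike to Apcs were Ccl4 (r = 0.50), Calr (0.49), Csn3 (0.49), Rps4x (0.48) and Atp5pb (0.46), and the most opposed was Nectin3 (-0.42). For Crp they were Cyp2e1 (0.63), a cytochrome of pericentral hepatocytes, Etl4 (0.60), Oip5os1 (0.58), Tcf3 (0.58) and Mecom (0.58), with Trappc6a most opposed (-0.42). Saa2 was most like S1pr3 (0.51), Tnfaip2 (0.44), Nt5m (0.43), Mfsd3 (0.43) and Slc24a2 (0.42), and least like Eno2 (-0.34). The probes closest to Saa4 were Wnt10a (0.53), Tubb3 (0.53), Amotl2 (0.51), Ide (0.50) and Aldh1a1 (0.49), and the farthest was 5033403F01Rik (-0.42). No member was among the 5 most alike to another: Crp ranked 54 of 11209 for Saa4, and Saa4 ranked 167 of 11181 for Crp. These are correlations over arrays that share a reference and scaling, given as descriptions. The lists were not stable: within single strain and diet groups 0 to 2 of the 5 most alike to a gene recurred.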

How the data were processed

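Liver RNA was compared with a pooled reference on 435 two-colour arrays, in groups read from the sample titles. The authors deposited linear ratios, other steps not being given in the sources used here; per the labels Cy5 held liver and Cy3 the reference, and that the ratios are liver over reference, with a mean of 1 per array, was read from the values. Of the measured values 0.251% were below 0 and 0.271% equal to 0, and 42.4% of cells were empty. A log2 was taken of the deposited positive ratios with no pseudocount, other values counting as not measured. Tested probes had values on 70% or more of the arrays and on 3 or more in each group, and arrays were centred on their median over these. Limma 3.58.1 (R 4.3.3) was fitted to group means of weeks 1, 3 to 7 and 9 to 11, with terms for strain and diet group and for week, and Benjamini-Hochberg adjustment at 0.05. Weekly tests used single arrays. Correlations used Python 3.11.15 with permutation within groups. Code was tested on simulated data. Of 17280 probe positions 14711 had 1 symbol and 6 several. Named were the members, the 5 probes most and least alike to each, and, from each list, members past the threshold and the 2 largest differences. The members and lists were chosen with earlier results of these data known. Alternatives covered centring, normalization, arrays and weeks left out, the unit of replication and probe filters.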

Additional observations from a re-analysis of the deposited data

Results flagged for a closer look

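Groups of 4 to 10 measured arrays numbered 158. In 24 of them the gap from 1 array to its nearest neighbour was large for the range of the group (Dixon's criterion). For normally distributed values chance gives about 1 in 20. The far arrays were the highest of their group in 5 cases and the lowest in 19, and no explanation was weighed. The same count over all probes is not given here, so 24 of 158 is not shown to be particular to the 4 genes.

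The high ones were Apcs at 0.84 (C57 high-fat week 6, next -0.26) and 1.79 (C57 low-fat week 9, next 0.23), Crp at 0.64 (A/J high-fat week 9) and 1.01 (C57 high-fat week 6), and Saa2 at 2.80 (C57 low-fat week 3, next 0.75). Among the low ones, Apcs stood at -3.20 (C57 high-fat) and -2.44 (C57 low-fat), both at week 1. Crp stood low in 6 groups, at -1.41 (A/J high-fat week 11), -3.39 (A/J low-fat week 5), -1.32 (A/J low-fat week 10), -1.43 (A/J low-fat week 11), -1.36 (C57 low-fat week 5) and -1.13 (C57 low-fat week 11). Saa2 was low at -1.04 (A/J high-fat week 6), -0.90 (A/J low-fat week 10), -1.20 (C57 high-fat week 5) and -1.14 (C57 low-fat week 10). For Saa4 the low arrays were at -0.63 (week 1), -1.41 (week 3), -1.65 (week 4) and -0.42 (week 6) in A/J high-fat mice, and at week 5 at -1.81 in A/J low-fat, -1.98 in C57 high-fat and -1.78 in C57 low-fat mice. Crp and Saa4 were far from the rest on the same array in 1 group, sample 47 of C57 low-fat week 5.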

How the results depend on the processing

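The Apcs strain difference on the high-fat diet was negative and called under all 21 alternatives, from -0.87 to -0.65, with adjusted p up to 0.0342. No other difference of the 4 genes was called in the main setting. On the low-fat diet Apcs was called with quantile normalization (-0.60), group medians (-0.67), single arrays as replicates (-0.48), consecutive arrays averaged (-0.51) and single arrays with the sample number as a replicate block (-0.41), but not under the other settings, and with single weeks left out it ran from -0.65 to -0.35. Sample numbers share no label-stated source. Over 481 pairs of arrays of equal number and week the median correlation of deviations was 0.01, against 0.00 for 4620 other pairs. Above 0.1 were 127 of the 481 and 1095 of the 4620. Numbering starts differently in some groups of the same week, so these values cannot show which arrays share a mouse or a hybridisation.

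The cause of each change below was not tested. Differences near 0 changed sign. Without centring, Saa4 by diet in C57 was -0.013, and by strain on the low-fat diet Saa2 was 0.038 and Saa4 0.024. Quantile normalization gave Saa2 by strain on the low-fat diet as 0.018 and the Saa4 diet-by-strain difference as 0.033. With all 10 weeks Saa4 by diet in C57 was -0.013, and Crp could not be fitted. The Crp diet-by-strain difference was 0.073 with group medians and 0.028 with averaged arrays. With single weeks left out the ranges were -0.024 to 0.12 for Saa4 by diet in C57 and -0.018 to 0.17 in A/J, -0.13 to 0.015 for Saa4 by strain on the high-fat diet, -0.069 to 0.036 for Saa2 and -0.089 to 0.032 for Saa4 on the low-fat diet, and -0.082 to 0.019 for Crp, -0.0050 to 0.12 for Saa2 and -0.15 to 0.10 for Saa4 in the diet-by-strain difference.

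The share of all probes called depended on the unit of replication. With single arrays, averaged arrays and the replicate block it was 1.52%, 0.916% and 1.36% for diet in C57, 0.131%, 0.0916% and 0.196% for diet in A/J, 10.1%, 8.67% and 9.30% for strain on the high-fat and 5.55%, 4.76% and 5.69% on the low-fat diet, and 0.0131% for each in the diet-by-strain difference, against 0.196%, 0.0262%, 3.94%, 2.39% and 0%. All 10 weeks gave 0.0697%, 0%, 1.92% and 1.25% for the first 4. Quantile normalization gave 0.0523% for diet in A/J and 3.68% for strain on the low-fat diet, and group medians 0.0131% for diet in A/J. With single weeks left out diet gave 0.0645% to 0.242% in C57 and 0% to 0.0265% in A/J, and strain on the low-fat diet 1.55% to 2.38%.

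Crp and Saa4 correlated at 0.25 to 0.58 over the settings tried, short of the threshold within A/J high-fat (0.30) and A/J low-fat (0.31) mice. Where the 2 arrays farthest out in Crp were also left out of each setting, r was 0.23 or more. Apcs and Crp turned negative with quantile normalization (-0.066), averaged arrays (-0.068), values in place of deviations (-0.12) and within C57 low-fat mice (-0.20). Without the 2 arrays farthest out in Apcs this pair was at -0.0066. Apcs and Saa2 were at 0.10 within C57 high-fat mice. Apcs and Saa4 were at -0.082 within C57 low-fat mice and reached 0.26, past the threshold, with values in place of deviations. Crp and Saa2 were at 0.047 without centring and 0.028 within A/J low-fat mice, where Saa2 and Saa4 passed the threshold (-0.30). High Apcs arrays numbered 7 at an excess of 1.5, 0 at 3 and 1 without centring; Saa2 had 0 at 3 and Saa4 1 at 1.5. Between 0 and 5 of the 5 probes most alike to a gene recurred under another setting. With averaged arrays, and within single strain and diet groups, it was 0 to 2. The alternatives without the highest Saa2 array, and for Crp and Saa4 without week 5 or the arrays low in both, were chosen after seeing the data, as was the week 0 test of Apcs.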
